A study of Mus musculus with 192 samples.

Results

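The proteasome was followed here through the 48 genes of the deposited table whose symbols are Psma, Psmb, Psmc, Psmd, Psme, Psmf or Psmg with a number, out of 54752 genes in all. The members were matched by symbol, and earlier results of these data were known when the set was chosen. They were divided by role into 7 alpha ring subunits, the germ cell alpha subunit Psma8 and 4 beta ring subunits without catalytic activity. There were 3 constitutive catalytic subunits, 3 immunoproteasome catalytic subunits and the thymoproteasome subunit Psmb11. The 19S cap gave 6 ATPases, 11 further subunits and 3 assembly factors. The rest were 4 activators, the inhibitor Psmf1 and 4 assembly factors of the 20S core. RNA had been sequenced from the thymus (Thy) and spleen (Spl), from white fat of the epididymis (eWAT) and brown fat between the shoulder blades (iBAT), from the temporal (TpB) and mandibular (MdB) bones, and from the cerebrum (Cbr), the liver (Liv) and the kidney (Kid). The mice were male, on a C57BL/6J background, listed at 12 weeks of age, and either wild type (WT) or homozygous for a germline knockout of Nrf2 (KO), so that the gene was lost in every cell type. They were flown to the International Space Station (FL_WT, FL_KO) or kept as ground controls (GC_WT, GC_KO). The paper's methods give 12 weeks as the age at readiness for transport, so the flight mice were older at dissection. The ground experiment simulated the flight, and the paper states no age at dissection for either group and no age difference between them. Each group held 6 mice, or 3 in MdB and Kid, except that 1 flight KO mouse was left out, which left 5 FL_KO mice, with 2 in MdB and 3 in Kid. In all, 184 of 192 libraries were used. The flight mice had also been launched, brought back and transported before dissection, and the ground experiment was run later at another site, so flight and these circumstances cannot be told apart.

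Background for these genes is as follows. The 26S proteasome is the protease complex that degrades proteins tagged with ubiquitin. Its 20S core is a barrel in which outer alpha rings gate the entry and inner beta rings hold the catalytic sites, and a 19S cap recognises, unfolds and threads in the substrate. Psmb5, Psmb6 and Psmb7 carry the catalytic sites of the constitutive core. Interferon gamma induces Psmb8, Psmb9 and Psmb10, which take their places in the immunoproteasome and favour peptides that fit MHC class I, and Psme1 and Psme2 form an activator ring that interferon gamma also induces. Psmb11 replaces Psmb5 and Psmb8 in epithelial cells of the thymic cortex, where it shapes the peptides on which CD8 T cells are selected. Nrf2, encoded by Nfe2l2, is a transcription factor of the oxidative stress response that binds antioxidant response elements, and the related factor Nfe2l1 is known for raising proteasome genes when the proteasome is impaired.

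Because Nrf2 binds a known DNA motif, the promoters of the members were searched for the core of the antioxidant response element, TGACNNNGC, on both strands. RefSeq promoters of 250 bases before the start (GRCm38.p6) were found for 40 of the 48 members. The core was present in 5 of the 40, or 12.5%, and in 10.2% of all 32851 promoters of the same length. Its holders were Psmb5, Psmb6, Psmc6, Psmd12 and Psmd9. The first pair encodes catalytic subunits that stand at the centre of the comparisons, so their promoters are shown, 5′ to 3′ on the strand of the gene, with the core in capitals. The Psmb5 window is chr14:54617996-54618245 on the minus strand, where the core begins 47 bases before the start. The Psmb6 window is chr11:70525107-70525356 on the plus strand, where it begins 9 bases before the start.
Psmb5: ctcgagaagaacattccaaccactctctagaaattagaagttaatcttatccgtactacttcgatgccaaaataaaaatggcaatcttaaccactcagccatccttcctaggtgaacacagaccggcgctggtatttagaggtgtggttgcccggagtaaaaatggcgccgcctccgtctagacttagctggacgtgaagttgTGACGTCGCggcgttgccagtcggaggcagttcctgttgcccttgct
Psmb6: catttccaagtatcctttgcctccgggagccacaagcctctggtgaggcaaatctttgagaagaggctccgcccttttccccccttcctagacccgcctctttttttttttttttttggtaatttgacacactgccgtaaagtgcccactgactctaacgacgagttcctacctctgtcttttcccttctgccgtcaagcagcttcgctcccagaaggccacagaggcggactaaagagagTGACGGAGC
These matches describe letters in a window and say nothing of binding in these tissues.

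Library totals ran from 8.01 M to 16.31 M expected counts, and Thy was the shallowest tissue at 8.01 M to 10.56 M. Nfe2l2 was lower in every KO library than in every WT library of all 9 tissues. Its values lay at 3.7 to 6.4 TPM (transcript abundance scaled for length and library total) in KO and 13.8 to 18.1 in WT libraries of Cbr, and came closest in Spl, at 60.4 to 67.8 and 73.1 to 86.7. Reads from the remaining part of the gene were thus counted in KO mice. Thy libraries were made from RNA depleted of ribosomal RNA and all others from poly(A) RNA, so levels in Thy were not obtained in the same way as the rest.

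In ground WT mice the constitutive core was expressed in every tissue at levels that stayed within a few times of each other, whereas the immunoproteasome subunits spanned 14.6 to 97.2 times between tissues. Levels are given as TPM, which is scaled per length and can be compared between genes. Of the 48 members, 43 had a mean of at least 5 TPM in GC_WT of all 9 tissues. The ratio of the highest to the lowest tissue mean was smallest for the beta ring subunit Psmb3, at 1.72, and for the alpha ring subunit Psma1, at 1.75. Leaving out Psma8 and Psmb11, which were near 0 in most tissues, it was largest for Psmb9, at 97.2, Psmb8, at 83.7, and Psmb10, at 14.6, followed by the activator subunits Psme1, at 6.80, and Psme2, at 6.30. Summed over the 48 members, the mean was highest in Spl, at 3833 TPM, and Cbr, at 3812 TPM. It was lowest in iBAT, at 2059 TPM, where 24 members had their lowest level. TPM are shares of a library's total. In GC_WT the 50 most abundant genes took a median of 68.7% of TPM in iBAT and 64% in Thy. They took 26.3% in Spl and 30.1% in Cbr, and their part in the order of tissues was not tested. Cbr held the highest level of 19 members and Spl that of 13, while Thy held the lowest level of 14.

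**Figure D1:**
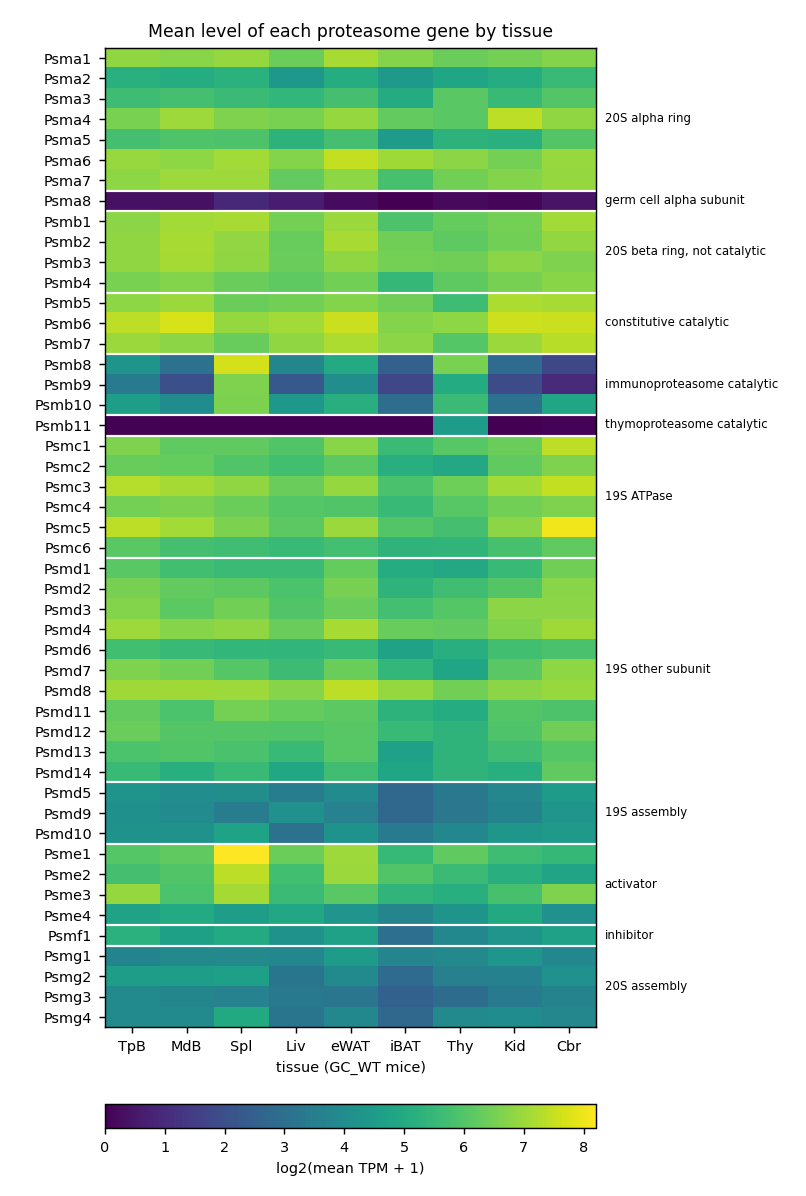
Heat map of log2(mean TPM + 1) in ground WT mice for each of the 48 members (vertical axis, by role) in 9 tissues (horizontal axis). Most subunits have a similar shade across tissues, while Psmb8, Psmb9 and Psmb10 are brightest in Spl, where Psmb8 had 204 TPM, and Psmb11 stands out in Thy alone, at 22.4 TPM.

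Psmb5, the subunit with chymotrypsin-like activity, had 145 ± 11.7 TPM (SD, n = 3) in Kid and 140 ± 6.06 (n = 6) in Cbr, whose ranges overlapped, then 125 in MdB, 111 in TpB, 102 in eWAT, 88.1 in Liv, 85.8 in iBAT and 81.3 in Spl, each overlapping its neighbour from MdB on. Thy was lowest, at 49.5 ± 4.73 TPM, below every Spl library. Psmb6 ran from 208 ± 12.95 TPM in MdB (n = 3) to 103 ± 6.58 in iBAT, and the only break in its order lay between TpB, at 167, and Liv, at 133. Psmb7 ran from 159 ± 9.65 TPM in Cbr to 65.0 ± 4.72 in Thy.

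Psmb8, the immunoproteasome counterpart of Psmb5, had 204 ± 9.86 TPM in Spl (196.2 to 222.4, n = 6), 93.4 ± 10.4 in Thy (82.5 to 110.5), 31.5 ± 3.62 in eWAT and 18.0 ± 2.26 in TpB, with no overlap between these 4. From TpB down, each tissue overlapped the next, through 12.7 in Liv, 7.54 in MdB, 6.35 in Kid and 4.72 ± 1.74 in iBAT to 2.44 ± 0.566 in Cbr. Psmb9 had the same order, from 97.7 ± 7.36 TPM in Spl and 32.4 ± 4.68 in Thy to 1.01 ± 0.531 in Cbr. Its exons overlap those of Tap1 on the opposite strand by 212 bases, so reads of these neighbours may be shared. Psmb10, the counterpart of Psmb7, departed from that order in Cbr, where it had 27.6 ± 2.002 TPM and took the place after Spl, Thy and eWAT, while Kid (7.39) and iBAT (6.57 ± 1.35) were lowest.

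The thymoproteasome subunit Psmb11 had 22.4 ± 3.91 TPM in Thy of GC_WT (18.6 to 28.4, n = 6), and in no library of another tissue did it exceed 0.16 TPM. Psmb5 and Psmb11 are neighbours on chromosome 14, at 54614119 to 54618022 and 54621433 to 54629556 (mm10). The germ cell subunit Psma8 did not exceed 1.67 TPM in any library. Psme1 was highest in Spl, at 296 ± 13.8 TPM, followed without overlap by eWAT, at 127 ± 7.95, and it was lowest in Cbr, at 43.5. Psme2 had 168 ± 6.66 TPM in Spl, 125 ± 10.1 in eWAT and 26.6 ± 1.79 in Cbr. The 19S ATPase Psmc5 was highest in Cbr, at 259 ± 12.6 TPM, above every library of the next tissue, TpB. The deubiquitinase of the cap, Psmd14, was also highest in Cbr, at 72.5 ± 3.15 TPM, and lowest in iBAT, at 27.3 ± 3.30. The 20S assembly factors had a median of 18.7 TPM over members in Spl and 6.00 in iBAT.

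The ratio of an immunoproteasome subunit to its constitutive counterpart within a library does not depend on the scaling of that library. It is given as a description, without a test. Psmb8 exceeded Psmb5 in both lymphoid tissues, at 2.24 to 2.96 times (median 2.49) in GC_WT of Spl and 1.67 to 2.06 times (median 1.95) in Thy. In eWAT the median was 0.311, and in Cbr it was 0.0177. Psmb9 stayed below Psmb6 everywhere, with a median ratio of 0.82 in Spl and 0.288 in Thy of GC_WT. Psmb10 exceeded Psmb7 in Spl of GC_WT, at 1.12 to 1.34 times, but not in Thy, at 0.667 to 0.797.

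**Figure D2:**
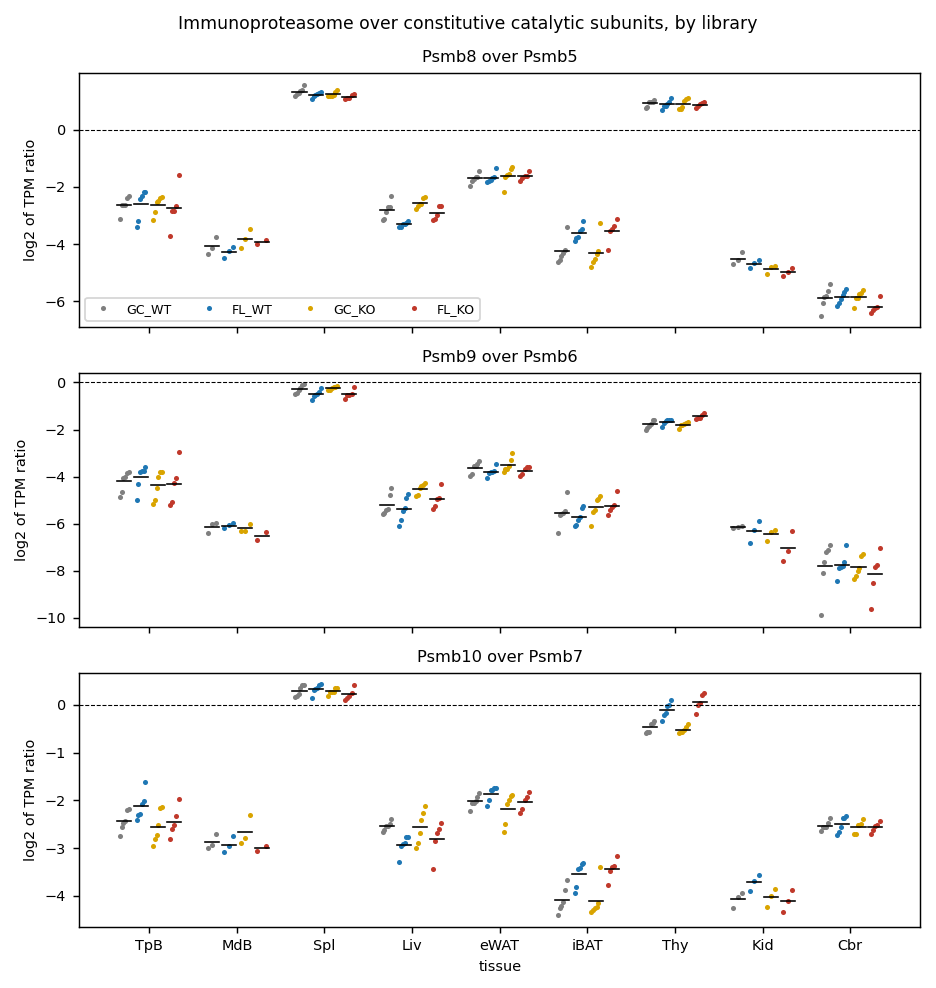
Log2 of the TPM ratio of each immunoproteasome subunit to its constitutive counterpart (vertical axes) by tissue (horizontal axis), with 1 point per library, coloured by group, and a bar at the group mean. Psmb8 over Psmb5 lies above 0 in Spl and Thy only, and Psmb10 over Psmb7 in Thy is higher in the flight groups, with GC_KO at 0.665 to 0.754 and FL_KO at 0.882 to 1.19 times.

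Not all of these ratios moved alike with flight in Thy and iBAT. In Thy the ratio of Psmb10 to Psmb7 was 0.665 to 0.754 in GC_KO (median 0.687) and 0.882 to 1.19 in FL_KO (median 1.03), without overlap, and in WT mice it went from a median of 0.72 to 0.941 with ranges that overlapped slightly (0.667 to 0.797 and 0.794 to 1.08). The Psmb9 to Psmb6 ratio in Thy was 0.252 to 0.309 in GC_KO and 0.34 to 0.413 in FL_KO, and had medians of 0.288 in GC_WT and 0.329 in FL_WT with overlap. Psmb8 to Psmb5 in Thy was not higher, with medians of 1.95 in GC_WT, 1.82 in FL_WT, 1.86 in GC_KO and 1.88 in FL_KO. In iBAT the median ratio of Psmb8 to Psmb5 was 0.0488 in GC_WT and 0.0799 in FL_WT, and 0.0467 in GC_KO and 0.0899 in FL_KO, but single ground libraries reached 0.0947 and 0.104, so the groups overlapped. The Psmb10 to Psmb7 ratio in iBAT had medians of 0.0556 in GC_WT and 0.0931 in FL_WT, and 0.0529 in GC_KO and 0.0956 in FL_KO, also with overlap, while that of Psmb9 to Psmb6 was slightly lower in flight, at 0.0213 and 0.0182 in WT and 0.0267 and 0.0259 in KO mice, with overlap. The medians of macrophage markers were higher in the flight groups of both tissues. The 6 macrophage markers summed to 20.64 to 60.41 TPM (median 30.93) in GC_WT and 34.8 to 62.56 (median 48.0) in FL_WT of iBAT, and to 18.15 to 34.07 (median 24.3) in GC_KO and 41.98 to 88.49 (median 62.34) in FL_KO. In Thy they summed to 113 to 162.5 TPM in GC_WT, 147.5 to 270.8 in FL_WT, 88.67 to 124.8 in GC_KO and 169.2 to 216.7 in FL_KO. In bulk tissue a change in cell types and a change in RNA per cell cannot be told apart, and the part of these cells in the ratios was not tested.

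The first comparison asked how space flight acted on WT mice, and the second asked the same for KO mice. Both were made in each tissue with edgeR's quasi-likelihood test on counts scaled by the trimmed mean of M values (TMM), and a gene was called at a Benjamini-Hochberg adjusted p under 0.05 over all genes tested. Over 417 pairs of tissue and member, 42 were called between FL_WT and GC_WT and 55 between FL_KO and GC_KO. All of them lay in iBAT, Thy and eWAT.

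**Figure D3:**
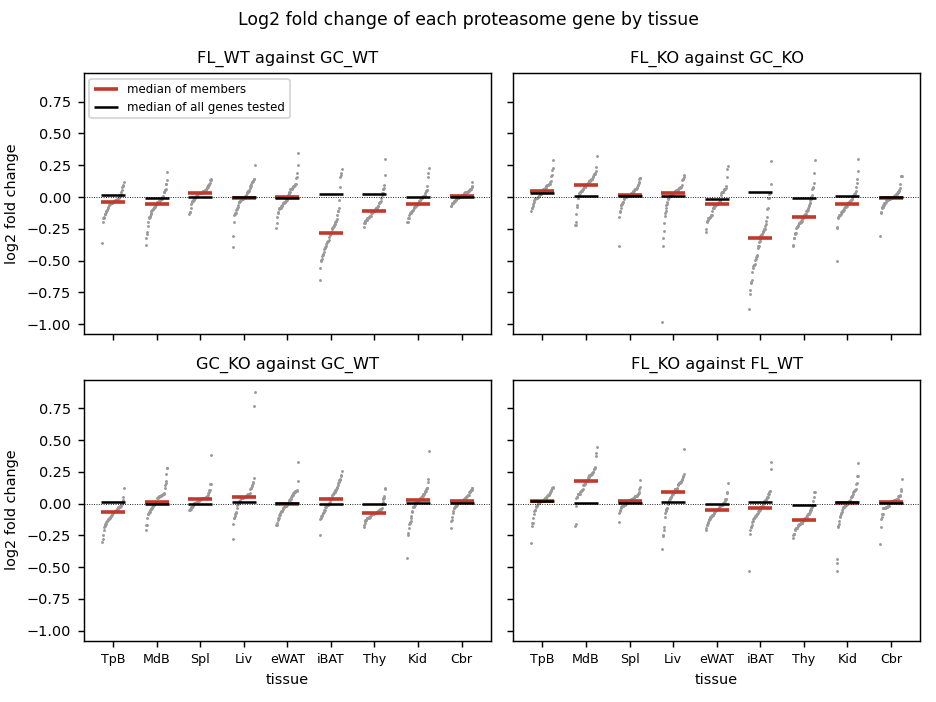
Log2 fold change (TMM scale, vertical axis) of every member in each of 9 tissues (horizontal axis) for the comparisons FL_WT against GC_WT, FL_KO against GC_KO, GC_KO against GC_WT and FL_KO against FL_WT, with the median of the members in red and that of all genes tested in black. The members of iBAT sit lowest in both flight comparisons, with medians of -0.28 and -0.32 on the TMM scale, against 0.03 and 0.10 on the TPM scale, where the median of all genes was 0.31 and 0.43.

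In iBAT most of the core and cap was lower in flight mice of both genotypes on the TMM scale. In WT mice 27 of 46 members tested were called lower and 1 higher, or 58.7% lower, where 10.3% of all genes were called lower, 8.83% higher and 19.2% in either direction. In KO mice 33 were called lower and 1 higher, or 71.7% lower, where 16.6% of all genes were called lower, 17% higher and 33.5% in either direction. The median log2 fold change of the members was -0.28 in WT and -0.32 in KO mice, and that of all genes tested was 0.02 and 0.04.

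The direction depends on the scale. On log2(TPM + 1), tested with limma, the median of all genes in iBAT was higher in flight mice by 0.31 in WT and 0.43 in KO mice, and the members' medians were 0.03 and 0.10. Against 55.7% of all genes called higher and 3.63% called lower in WT mice, 7 of 45 members were called higher and 4 lower. In KO mice 65.3% of all genes were called higher and 5.43% lower, and the members called were 11 higher and 6 lower. Relative to the median of all genes the members were thus lower on both scales, by 0.28 and 0.34 on the TPM scale, where 40 and 42 of 45 members lay below that median. Psma1, Psma4, Psmb7 and Psmd14 were called lower on both scales in WT mice, and Psma2, Psma6, Psmb3, Psmb5, Psmb7 and Psmd14 in KO mice.

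By role, the core moved most. On the TMM scale 6 of 7 alpha ring subunits were called lower in WT mice, with a median of -0.46, and all 7 in KO mice, with a median of -0.54. All 4 beta ring subunits without catalytic activity were called lower in both genotypes (medians -0.38 and -0.51), and so were 2 of 3 constitutive catalytic subunits in WT and all 3 in KO mice (medians -0.46 and -0.68). None of the 3 immunoproteasome catalytic subunits was called in either genotype, with medians of 0.08 and -0.10. Of the 19S ATPases, 4 of 6 and 5 of 6 were called lower (medians -0.25 and -0.33), and of the other cap subunits 8 of 11 and 10 of 11 (medians -0.24 and -0.29). The ubiquitin receptor Psmd4 was not among these, at -0.02 and -0.16. None of the 4 assembly factors of the 20S core was called, with medians of -0.11 and 0.03, nor was the inhibitor Psmf1.

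**Figure D4:**
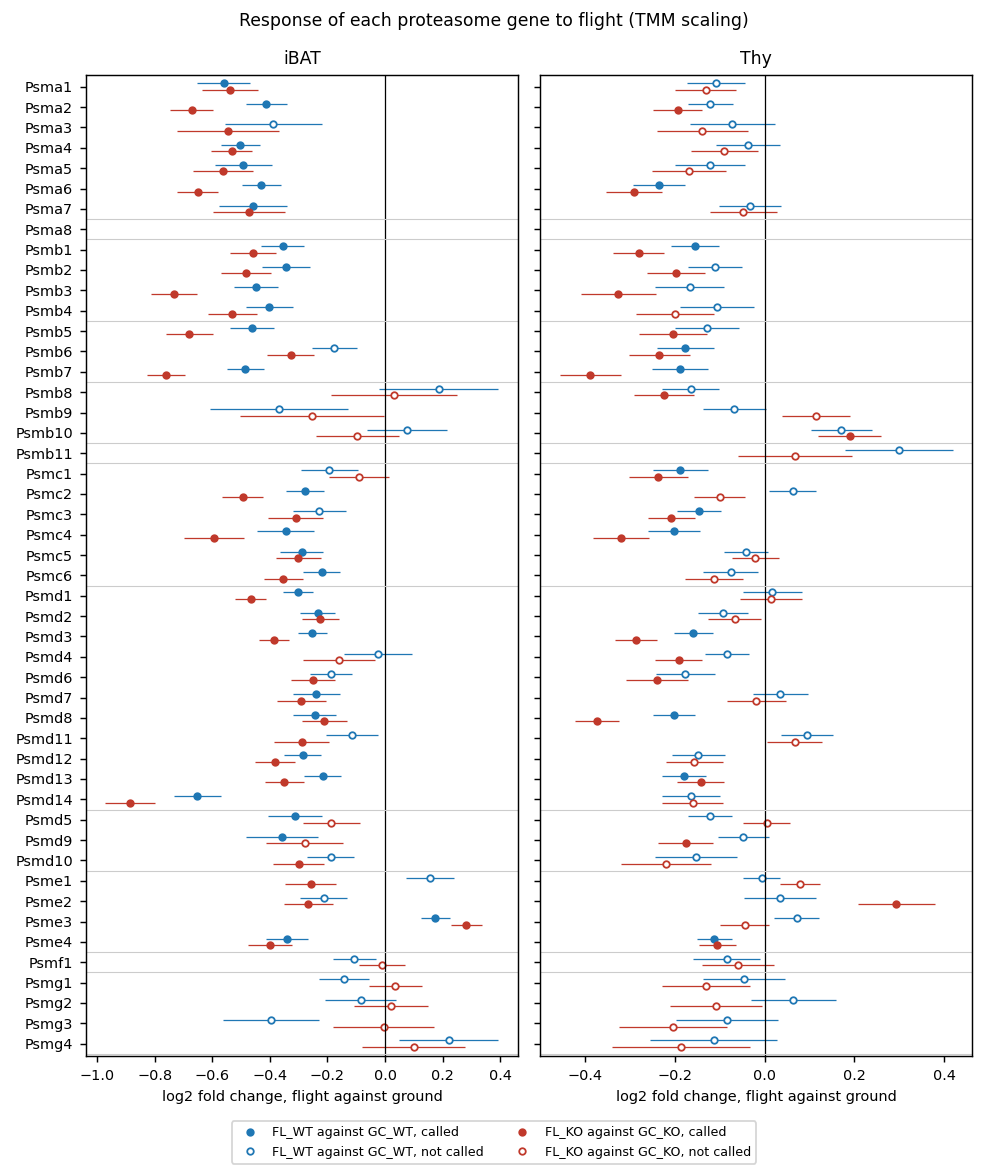
Log2 fold change on the TMM scale (horizontal axis) with its standard error for each member (vertical axis) in iBAT and Thy, for FL_WT against GC_WT and FL_KO against GC_KO, with filled points for members called at an adjusted p under 0.05. In iBAT the subunits of the core lie between -0.18 and -0.76 apart from Psmb8, Psmb9 and Psmb10, whereas on the TPM scale the members' medians in iBAT were 0.03 and 0.10 and in Thy 0.11 and 0.10, above 0.

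Psmb5 ran from 51.5 to 66.9 CPM (counts scaled for library total on the TMM scale, median 59.4) in GC_WT and from 40.1 to 47.8 (median 43.7) in FL_WT of iBAT. In KO mice it ran from 52.2 to 70.0 (median 60.4) on the ground, and the 5 flight mice had 33.7, 35.9, 38.1, 40.2 and 42.3. Every flight library thus lay below every ground library of its genotype, and the log2 fold change was -0.46 ± 0.077 (SE, adjusted p = 0.000211) in WT and -0.68 ± 0.081 (adjusted p = 1.78e-06) in KO mice. In TPM the same gene had 85.8 ± 4.46 in GC_WT, 77.7 ± 7.32 in FL_WT, 82.1 ± 6.03 in GC_KO and 69.6 ± 9.49 in FL_KO (SD).

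Psmb7, the subunit with trypsin-like activity, ran from 87.0 to 109.7 CPM (median 103.7) in GC_WT and from 67.0 to 78.2 (median 74.2) in FL_WT. In GC_KO it ran from 97.9 to 122.6 (median 116.5), and FL_KO mice had 64.25, 64.25, 67.7, 68.0 and 72.9. The groups did not overlap within either genotype, and the log2 fold changes were -0.49 ± 0.063 (adjusted p = 1.71e-05) and -0.76 ± 0.067 (adjusted p = 2.88e-08). Its exons overlap those of Nek6 by 253 bases on the opposite strand. Psmb6, with caspase-like activity, overlapped between FL_WT and GC_WT and was not called in WT mice, at -0.18 ± 0.079 (adjusted p = 0.122). In KO mice it was called lower, at -0.33 ± 0.083 (adjusted p = 0.00437), but was at 0.10 on the TPM scale.

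Psmd14, which removes ubiquitin chains from substrates at the cap, had the largest change of any member in iBAT on the TMM scale. It ran from 31.6 to 36.6 CPM (median 34.0) in GC_WT and from 19.2 to 25.2 (median 21.4) in FL_WT. In GC_KO the range was 36.4 to 46.4 (median 40.6), and FL_KO mice had 20.03, 20.2, 20.5, 22.4 and 26.6. No flight library reached a ground library, and the log2 fold changes were -0.65 ± 0.081 (adjusted p = 1.02e-05) and -0.89 ± 0.086 (adjusted p = 9.99e-08). The alpha ring subunit Psma4 was called lower in WT mice at -0.50 ± 0.069 (adjusted p = 2.99e-05), and Psma6, of the same ring, in KO mice at -0.65 ± 0.071 (adjusted p = 5.44e-07).

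Psmb8 stood apart from the constitutive core. It ran from 4.51 to 9.23 CPM (median 5.71) in GC_WT and from 5.33 to 9.42 (median 6.74) in FL_WT, and from 4.0 to 10.2 (median 5.41) in GC_KO, with 4.28, 5.89, 6.81, 6.93 and 7.22 in FL_KO. All groups overlapped, and the log2 fold changes were 0.19 ± 0.208 (adjusted p = 0.579) and 0.03 ± 0.219 (adjusted p = 0.931). Psmb9 was at -0.37 ± 0.241 (adjusted p = 0.304) and -0.25 ± 0.25 (adjusted p = 0.461), and Psmb10 at 0.08 ± 0.139 (adjusted p = 0.754) and -0.10 ± 0.145 (adjusted p = 0.644). The standard errors of these 3 genes were 0.139 to 0.25, against 0.063 to 0.083 for the constitutive catalytic subunits, so a change of the size seen in Psmb6 was not detectable in them.

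Psme3, which forms an activator ring of the nucleus, was the member called higher in both genotypes. It ran from 84.3 to 94.4 CPM (median 87.3) in GC_WT and from 94.9 to 103.7 (median 99.7) in FL_WT. In GC_KO it ran from 78.2 to 89.9 (median 85.7), and FL_KO mice had 93.0, 96.6, 108.1, 108.4 and 111.9. Every flight library lay above every ground library of its genotype, at a log2 fold change of 0.18 ± 0.051 (adjusted p = 0.0204) and 0.28 ± 0.054 (adjusted p = 0.000379), and it was also higher on the TPM scale, by 0.48 and 0.70. The activator Psme4 was called lower in both genotypes, at -0.34 and -0.40.

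Psme1, a subunit of the interferon-induced ring, differed between the genotypes in flight. It ran from 25.8 to 35.9 CPM (median 31.5) in GC_WT and from 29.1 to 36.5 (median 35.8) in FL_WT, and from 25.5 to 30.9 (median 29.1) in GC_KO, with 20.1, 22.4, 22.7, 27.1 and 27.5 in FL_KO. The change with flight was 0.16 ± 0.084 in WT mice (adjusted p = 0.199) and -0.26 ± 0.089 in KO mice (adjusted p = 0.0288), but 0.16 in KO mice on the TPM scale. The difference between these responses was -0.42 ± 0.122 and was not called (adjusted p = 0.258). Psme2, its partner in the ring, was at -0.21 ± 0.081 (adjusted p = 0.0688) in WT and -0.27 ± 0.085 (adjusted p = 0.0194) in KO mice on the TMM scale, and at 0.17 in KO mice on the TPM scale.

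**Figure D5:**
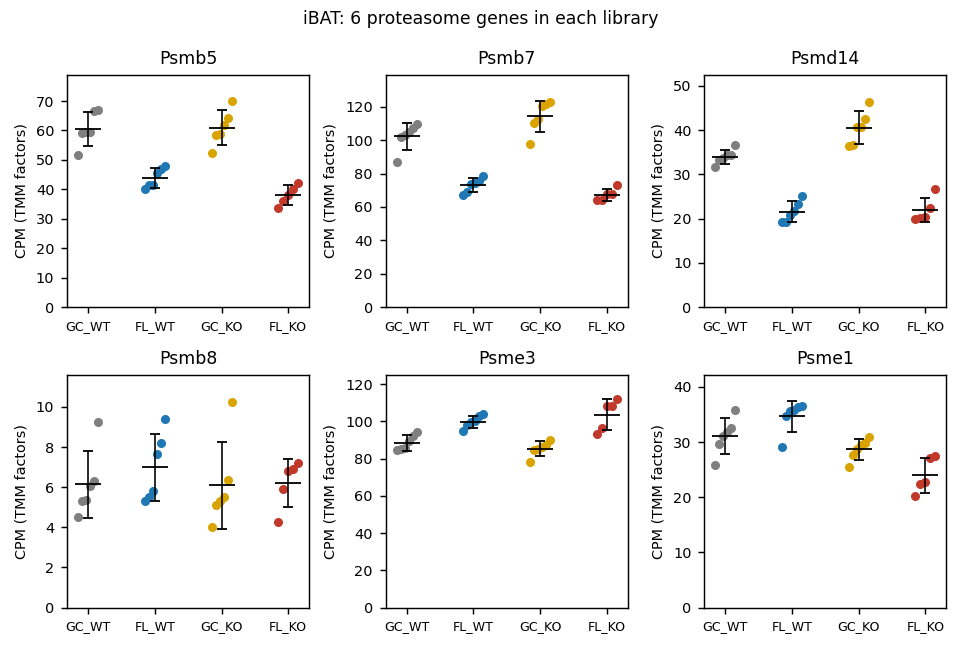
CPM on the TMM scale (vertical axes, from 0) of 6 members in each iBAT library, by group (horizontal axis), with the mean and SD. Psmb5, Psmb7 and Psmd14 are lower and Psme3 higher in all flight libraries than in ground libraries of the same genotype, Psmb8 overlaps between all groups, and Psme1 is lowest in FL_KO, while on the TPM scale Psme1 was at 0.16 between FL_KO and GC_KO.

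Other measures of the iBAT libraries moved with flight. The 50 most abundant genes took 65.9 to 70.8% of TPM in GC_WT and 62.2 to 65.9% in FL_WT, and 70.1 to 71.4% in GC_KO and 62.2 to 67.2% in FL_KO. Brown adipocyte markers overlapped between the groups, with medians of 6293 TPM in GC_WT, 6888 in FL_WT, 5597 in GC_KO and 5929 in FL_KO. On the TPM scale the median log2 fold change of all genes with flight was 0.31 in WT and 0.43 in KO mice. Leukocyte markers summed to 12.6 to 25.71 TPM in GC_WT and 17.26 to 26.7 in FL_WT, and to 11.13 to 19.4 in GC_KO and 15.92 to 41.01 in FL_KO. The part of these measures in the proteasome result was not tested. Skeletal muscle markers summed to more than 1000 TPM in 3 flight libraries (2 of FL_WT, up to 6595, and 1 of FL_KO, at 8107) and to at most 69.2 in all others. Without these 3 libraries 24 members were called lower in WT and 29 in KO mice, and the medians were -0.30 and -0.31. The share of all genes called in that fit is not given, so these counts are not set against a background.

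In Thy fewer members were lower in flight mice and the changes were smaller. On the TMM scale 11 of 47 members were called lower and 0 higher in WT mice, or 23.4% lower, where 11% of all genes were called lower, 11.8% higher and 22.8% in either direction. In KO mice 19 were called lower and 2 higher, or 40.4% lower, where 18.9% of all genes were called lower, 19.3% higher and 38.2% in either direction. On the TPM scale, however, the median of all genes in Thy was higher in flight mice by 0.18 and 0.16, 10 members were called higher in WT and 9 in KO mice, and 0 lower. The corresponding shares of all genes were 38.6% higher and 2.33% lower in WT, and 33.8% higher and 2.96% lower in KO mice. Relative to the median of all genes the members' medians were -0.07 and -0.06 on that scale, and 34 and 33 of 47 members lay below that median. The members' medians were thus below that of all genes on both scales, by little on the TPM scale. Their direction against ground mice in Thy rests on the scaling.

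On the TMM scale the constitutive catalytic subunits were called in 2 of 3 cases in WT mice and in all 3 in KO mice. Psmb7 ran from 72.4 to 83.8 CPM (median 76.5) in GC_WT and from 59.5 to 74.5 (median 68.5) in FL_WT, and from 68.2 to 86.3 (median 76.3) in GC_KO, with 49.9, 56.3, 61.9, 62.1 and 62.2 in FL_KO. The KO groups did not overlap and the WT groups overlapped slightly, at -0.19 ± 0.063 (adjusted p = 0.0326) in WT and -0.39 ± 0.068 (adjusted p = 8.44e-05) in KO mice. Psmb6 was at -0.18 ± 0.064 (adjusted p = 0.0454) and -0.24 ± 0.068 (adjusted p = 0.00812), and Psmb5 at -0.13 ± 0.071 (adjusted p = 0.201) and -0.20 ± 0.076 (adjusted p = 0.0373). On the TPM scale Psmb6 was above 0 in both genotypes, at 0.05 and 0.02, Psmb7 in WT mice, at 0.04, and Psmb5 in KO mice, at 0.06.

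Of the cap, 3 of 6 ATPases were called lower in both genotypes, and 3 and 5 of its 11 other subunits. Psmd8, a subunit of the lid of the cap, ran from 123.6 to 127.6 CPM (median 126.1) in GC_WT and from 103.0 to 117.1 (median 109.5) in FL_WT, and from 108.5 to 129.7 (median 118.0) in GC_KO, with 83.7, 89.0, 92.0, 92.5 and 102.9 in FL_KO. Flight libraries lay below ground libraries in both genotypes without overlap, at -0.20 ± 0.047 (adjusted p = 0.00302) and -0.37 ± 0.05 (adjusted p = 4.83e-06), though Psmd8 was at 0.03 in WT mice on the TPM scale. Psmd3, of the same lid, was at -0.16 ± 0.044 (adjusted p = 0.0106) and -0.29 ± 0.047 (adjusted p = 3.98e-05), and at 0.07 in WT mice on the TPM scale. The alpha ring subunit Psma6 was at -0.24 ± 0.058 (adjusted p = 0.00499) and -0.29 ± 0.063 (adjusted p = 0.000732).

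The immunoproteasome subunits of Thy did not move together. Psmb10 ran from 52.3 to 66.4 CPM (median 61.45) in GC_KO and was 62.6, 67.8, 70.6, 72.6 and 73.6 in FL_KO, with 58.0 to 76.1 (median 61.4) in GC_WT and 66.9 to 77.8 (median 70.3) in FL_WT. It was called higher in KO mice, at 0.19 ± 0.071 (adjusted p = 0.039), and was at 0.17 ± 0.067 (adjusted p = 0.068) in WT mice, and it was called higher in both on the TPM scale, at 0.40 and 0.44. Psmb8 had the other sign, at -0.17 ± 0.063 (adjusted p = 0.0597) in WT and -0.23 ± 0.067 (adjusted p = 0.00975) in KO mice, but was at 0.04 in KO mice on the TPM scale. Psmb9 was not called, at -0.07 (adjusted p = 0.515) and 0.11 ± 0.075 (adjusted p = 0.239). Psme2 was called higher in KO mice, at 0.29 ± 0.086 (adjusted p = 0.00943), where GC_KO had 29.9 to 39.6 CPM (median 36.9) and FL_KO 37.8, 42.0, 46.3, 46.8 and 47.7, and Psme1 was called in neither genotype.

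The thymoproteasome subunit Psmb11 had 84.3 to 129.8 CPM (median 99.8) in GC_WT and 86.1 to 165.7 (median 125.6) in FL_WT, and 77.8 to 119.3 (median 106.7) in GC_KO, with 102.2, 103.8, 109.3, 112.3 and 121.2 in FL_KO. All groups overlapped, and it was not called on the TMM scale, at 0.30 ± 0.12 (adjusted p = 0.0721) in WT and 0.07 ± 0.127 (adjusted p = 0.707) in KO mice. On the TPM scale it was called higher in WT mice, at 0.50 (limma adjusted p = 0.0116). The other markers of the cortical epithelium, which makes this subunit, summed to 1011 to 1300 TPM in GC_WT and 1438 to 1976 in FL_WT, and to 680.3 to 1147 in GC_KO and 1167 to 1438 in FL_KO. Thymocyte markers were lower in flight, with medians of 1610 TPM in GC_WT, 1355 in FL_WT, 1343 in GC_KO and 963 in FL_KO. How far these cell types set the values of Psmb11, Psmb10 and the rest was not tested.

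In eWAT the core did not change together in either genotype. In WT mice 1 of 46 members was called higher and 2 lower, or 2.17% and 4.35%, where 6.65% of all genes were called higher, 6.78% lower and 13.4% in either direction, so the members' share lay below the background. Psme1 ran from 57.0 to 64.9 CPM (median 61.1) in GC_WT and from 63.4 to 77.8 (median 74.2) in FL_WT, with a slight overlap, and rose by 0.25 ± 0.066 (adjusted p = 0.0138). In KO mice it ran from 47.4 to 62.6 (median 57.3) on the ground and was 58.75, 58.76, 60.7, 68.8 and 68.8 in flight, at 0.16 ± 0.07 (adjusted p = 0.163). The activator Psme4 was lower in FL_WT, with 62.8 to 79.6 CPM (median 67.9) on the ground and 57.1 to 65.2 (median 61.3) in flight, at -0.20 ± 0.058 (adjusted p = 0.0222). The assembly factor Psmd5 was at -0.25 ± 0.077 (adjusted p = 0.0374) with overlapping groups. On the TPM scale 6 members, Psme1 among them, were called higher and 0 lower in WT mice, where 16.7% of all genes were called higher and 4.23% lower.

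In KO mice of eWAT 0 members were called by edgeR, where 7.71% of all genes were, and 0 were called by limma. By edgeR 11 members stood at an unadjusted p under 0.05, or 23.9%, against 23.3% of all genes. DESeq2 called 2 lower, Psmc6 at -0.16 and Psmd14 at -0.27, where 10.7% of all genes were called. B cell markers summed to 71.9 TPM in 1 FL_WT library of eWAT and to at most 17.8 in all others, and without it 2 members were called higher and 1 lower in WT mice. Macrophage markers of eWAT summed to 656.7 to 969.2 TPM in GC_WT and 879.6 to 1835 in FL_WT, and their part in the level of Psme1 was not tested.

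No member was called by edgeR with flight in either genotype in TpB, MdB, Spl, Liv, Kid or Cbr. The share of all genes called in WT mice was 0 in TpB and MdB, 2.26% in Spl, 3.45% in Liv, 0.119% in Kid and 0.0244% in Cbr, and in KO mice it was 0 in TpB and MdB, 0.668% in Spl, 3.34% in Liv, 0.159% in Kid and 0.0061% in Cbr, so that few genes of any kind passed the test in these tissues. Members at an unadjusted p under 0.05 numbered 2 and 0 in TpB, 3 and 0 in MdB, 2 and 7 in Spl, 1 and 4 in Liv, 1 and 4 in Kid and 0 and 0 in Cbr for WT and KO mice. All genes at that cut made up 3.71% and 2.67% in TpB, 8.68% and 3.48% in MdB and 17% and 13% in Spl. They made up 16.7% and 15.4% in Liv, 6.64% and 12.8% in Kid and 3.35% and 5.52% in Cbr. The members' share was 4.35% in TpB of WT and 14.9% in Spl of KO mice, and lay below that of all genes elsewhere. The members' medians lay between -0.05 and 0.09 in these tissues. The nearest to the threshold was Psmb8 in Liv of WT mice, at -0.39 ± 0.116 (adjusted p = 0.0592). DESeq2 called this gene, where it called 5.42% of all genes, and limma on TPM called Psmb6 higher in its place, at 0.19, where it called 7.82%. In KO mice of Liv limma called 5 members higher (Psma5, Psma7, Psmb6, Psmd4 and Psmd8), where it called 17.9% of all genes. DESeq2 and limma called 0 members with flight in the other 5 of these tissues.

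The comparison of genotypes asked what the loss of Nrf2 changed, on the ground and in flight. Between GC_KO and GC_WT 1 of 417 pairs was called by edgeR. This was Psmd3 of iBAT, a lid subunit, which ran from 84.3 to 103.3 CPM (median 93.6) in GC_WT and from 103.9 to 120.9 (median 108.3) in GC_KO. The groups did not overlap, and the log2 fold change was 0.23 ± 0.051 (adjusted p = 0.0178), in a tissue where 1.02% of all genes were called higher and 2.14% in either direction, but it was not called on the TPM scale. No other member was called by edgeR in any tissue between GC_KO and GC_WT, Psmb5 and Psmb6 included. A link to the promoter matches was not tested. The share of all genes called was 0.198% in TpB, 0.244% in MdB, 1.13% in Spl, 2.64% in Liv, 2.74% in eWAT, 3.81% in Thy, 1.61% in Kid and 0.836% in Cbr. Members at an unadjusted p under 0.05 numbered 2, 0, 2, 6, 3, 4, 4 and 0 in these 8 tissues in that order. All genes at that cut made up 2.9%, 5.07%, 10.8%, 13.4%, 15.5%, 18.8%, 10.9% and 9.27% in the same order. The members' share was above that of all genes only in TpB, at 4.35%.

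Psmb9 in Liv came closest to a call between the ground groups, at 0.77 ± 0.21 (adjusted p = 0.0516), with 2.37 to 5.1 CPM (median 2.89) in GC_WT and 4.45 to 7.12 (median 5.53) in GC_KO. DESeq2 and limma both called it, where they called 3.78% and 3.47% of all genes. Apart from it, limma called Psmd3 and Psmg4 higher in eWAT, where it called 2.92% of all genes, and DESeq2 called Psma6 lower in Thy, where it called 4.62%. No further member was called by these tools in the 8 tissues.

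Between FL_KO and FL_WT 6 of 417 pairs were called, all of them lower in FL_KO. In iBAT this was Psme1, at -0.53 ± 0.089 (adjusted p = 0.00128), whose groups did not overlap (20.1 to 27.5 CPM in FL_KO and 29.1 to 36.5 in FL_WT), where 1.27% of all genes were called lower and 1.5% in either direction. In Thy the 5 called were Psmd8, at -0.25 ± 0.05 (adjusted p = 0.00643), the ATPase Psmc2, at -0.24 ± 0.056 (adjusted p = 0.0249), Psma6, at -0.24 (adjusted p = 0.0351), and Psmd3 and the ubiquitin receptor Psmd4, at -0.17 and -0.19 (adjusted p = 0.0462 for both), where 1.34% of all genes were called lower and 2.64% in either direction. On the TPM scale none of these 5 was called. The count in Thy fell to 1 without FL_KO mouse 01, 02 or 12 and to 3 without mouse 09 or 11, so it rests on few libraries.

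In the other 7 tissues edgeR called 0 members between FL_KO and FL_WT, with 0 at an unadjusted p under 0.05 in TpB and Cbr, 3 in MdB, 2 in Spl, 12 in Liv, 3 in eWAT and 5 in Kid. All genes at that cut made up 2.3% in TpB, 5.16% in Cbr, 5.4% in MdB and 11% in Spl. They made up 17.3% in Liv, 10.7% in eWAT and 13.2% in Kid. The members' share was 25.5% in Liv and 6.52% in MdB, and lay below that of all genes in the rest. The share of all genes called was 0.203% in TpB, 0.208% in MdB, 1.16% in Spl, 3.65% in Liv, 1.06% in eWAT, 1.83% in Kid and 0.531% in Cbr. DESeq2 called 0 members there. Limma called Psmf1 lower in Spl, where it called 1.61% of all genes, Psmb3 higher in Liv, where it called 4.07%, and Psmd10 higher in Kid, where it called 1.88%.

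Whether flight acted differently on the genotypes was tested as an interaction in each tissue. None of the 417 pairs was called by edgeR, DESeq2 or limma, and edgeR called 0 genes of any kind in all 9 tissues. Members at an unadjusted p under 0.05 numbered 7 in iBAT, 4 in Thy, 2 in MdB, 2 in Kid and 1 each in TpB, Liv and eWAT, with 0 in Spl and Cbr. In iBAT this was 15.2% of members against 8.3% of all genes, and in Thy 8.51% against 8.23%. All genes at that cut made up 5.05% in MdB, 3.38% in Kid, 1.77% in TpB and 4.03% in Liv. They made up 8.43% in eWAT, 3.98% in Spl and 2.34% in Cbr. The larger number of members called in KO than in WT mice is therefore not shown to be a difference between the genotypes.

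A list of 24 proteasome partners and regulators, among them ubiquitin genes, chaperones, shuttle factors and Nfe2l1, was read beside the members. In iBAT 2 were called higher and 6 lower in WT, and 4 and 5 in KO mice, with medians of -0.07 and -0.09 on the TMM scale, where 8.83% of all genes were called higher and 10.3% lower in WT, and 17% and 16.6% in KO mice. Limma on TPM called 13 and 17 of them higher and 0 lower, where it called 55.7% and 65.3% of all genes higher. Nfe2l1 was called higher in iBAT, at 0.39 ± 0.05 (adjusted p = 1.4e-05) in WT and 0.25 ± 0.052 (adjusted p = 0.00103) in KO mice, and in Thy, at 0.15 ± 0.053 (adjusted p = 0.038) and 0.28 ± 0.056 (adjusted p = 0.000359), and it was called higher in all 4 on the TPM scale too. Pomp, the chaperone that matures the core, was called lower in iBAT, at -0.38 ± 0.065 and -0.51 ± 0.068, and had -0.03 and -0.05 on the TPM scale. Sem1, a small subunit of the cap, was called lower in iBAT at -0.47 ± 0.084 in WT and -0.37 ± 0.088 in KO mice on the TMM scale, with -0.15 and 0.07 on the TPM scale. The unfoldase Vcp was called lower at -0.22 ± 0.054 and -0.44 ± 0.057 on the TMM scale, with 0.09 and -0.002 on the TPM scale. In Thy 3 partners were called higher and 4 lower in WT, and 2 and 9 in KO mice, on the TMM scale, where 11.8% of all genes were called higher and 11% lower in WT, and 19.3% and 18.9% in KO mice, but 10 and 6 were called higher and 0 lower on the TPM scale, where 38.6% and 33.8% of all genes were called higher.

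Of 15 genes of peptide presentation and the interferon gamma response, 6 were called higher and 2 lower in Thy of WT mice, and 9 and 2 in KO mice, with medians of 0.15 and 0.31, where 11.8% of all genes were called higher and 11% lower in WT, and 19.3% and 18.9% in KO mice. Limma on TPM called 10 and 13 higher and 1 lower in each, where it called 38.6% and 33.8% of all genes higher. The MHC class I gene H2-K1 was called higher, at 0.34 ± 0.075 (adjusted p = 0.00235) in WT and 0.65 ± 0.079 in KO mice. The receptor subunit Ifngr1 was called lower, at -0.55 ± 0.074 and -0.65 ± 0.079, and so was the peptide transporter subunit Tap2 on the TMM scale, at -0.27 ± 0.051 and -0.21 ± 0.053, with -0.04 and 0.05 on the TPM scale. Psmb8, Psmb9 and Psmb10, which interferon gamma induces, were called in neither adipose tissue.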

How the data were processed

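RNA of 9 tissues was sequenced as single reads from strand-specific libraries, made from poly(A) RNA or, in Thy, from RNA depleted of ribosomal RNA. The authors mapped the reads to mm10 with STAR 2.6.1 and deposited expected counts per gene from RSEM 1.3.1, which splits reads between the genes they fit and which were not normalized. The authors also deposited the TPM that RSEM computes. A further 192 columns of FPKM were not used. The strand setting of the counting is not given in the sources used here, and exons of 11 members overlap a gene on the opposite strand. Coordinates were taken from GENCODE on mm10 and promoter sequences from RefSeq on GRCm38.p6.

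Expected counts were rounded, since 6.01% were not whole. Each tissue was fitted on its own with edgeR 4.0.16 (R 4.3.3), using filterByExpr by group, TMM factors and the quasi-likelihood test on the 4 groups together. Benjamini-Hochberg adjustment covered every gene that was tested in the tissue, and a gene was called under 0.05. Members that passed the filter numbered 46 in TpB, MdB, eWAT, iBAT, Kid and Cbr and 47 in Spl, Liv and Thy. CPM are on the TMM scale. The code was tested on simulated counts with known changes. Groups came from the labels, each library being 1 mouse, so the p-values measure the spread between mice. Flight mouse 04, which the study left out of most analyses, was left out here.

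The members and gene lists were chosen with earlier results of these data known. Genes named in the text were Psmb5 to Psmb11, Psma8, Psme1 and Psme2, up to 3 members called higher and 3 called lower by the smallest adjusted p in each tissue and comparison, members called against the majority, and up to 2 genes each way of the other lists. Other members were named after their values were seen, where a count is small. The partner Paaf1 was not among the genes matched, which left 24.

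Results were recomputed with DESeq2 1.42.0, with limma 3.58.1 after a log2(TPM + 1) transformation where some group reached a mean of 5 TPM, with RLE factors, without the filter, with flight mouse 04, with only the groups compared, with blocks for the mouse number and (TpB) for the library set, and with single mice left out. Mice were left out singly only from groups of 5 or fewer mice, apart from GC_KO mouse 04 in Thy. Leaving out 3 iBAT libraries with skeletal muscle markers above 1000 TPM and 1 eWAT library with B cell markers above 50 TPM was chosen after seeing the data. Flight and ground mice with the same number are different animals. The numbers were taken to pair the samples where, with at least 3 pairs, the deviations from the group means correlated above 0.1 in every pair. This held among KO mice of Liv (r = 0.222 to 0.369 in 5 pairs), where 0 members were called with or without the block, and not in KO mice of iBAT (0.071 to 0.286).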

Additional observations from a re-analysis of the deposited data

Results flagged for a closer look

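Single libraries stood far from the rest of their group in 12 of 176 groups of values that were examined, where chance alone gives about 1 in 20. In iBAT these were Psmb7 in 1 GC_WT mouse, at 87.0 CPM against a median of 104, and Psme1 in 1 FL_WT mouse, at 29.1 CPM against 35.8. In Thy they were Psmd3 in GC_WT, at 139 CPM against a median of 146, Psmb10 in GC_WT, at 76.1 CPM against 61.4, Psmb5 in FL_WT, at 32.2 CPM against 42.0, and Psmc2 in GC_WT, at 63.5 CPM against 54.2, and in FL_WT, at 65.5 CPM against 57.6. The log2 ratio of Psmb8 to Psmb5 was high in 1 library each of eWAT FL_WT (-1.33, median -1.73), iBAT GC_KO (-3.27, median -4.42) and iBAT GC_WT (-3.4, median -4.36). The log2 ratio of Psmb10 to Psmb7 was low in 1 library of Liv FL_WT (-3.3, median -2.89) and high in 1 of iBAT GC_KO (-3.39, median -4.24).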

How the results depend on the processing

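Of 437 values recomputed for the 34 named changes, 371 kept their direction and their side of the threshold, 56 kept the direction only and 10 reversed. All 10 reversals came with limma on log2(TPM + 1). They were, in iBAT of KO mice, Psmb6 (0.10), Psme1 (0.16) and Psme2 (0.17), in Thy of WT mice, Psmd8 (0.025), Psmd3 (0.068), Psmb6 (0.048) and Psmb7 (0.038), and in Thy of KO mice, Psmb6 (0.02), Psmb5 (0.059) and Psmb8 (0.036). With limma, members called higher and lower between FL_WT and GC_WT numbered 6 and 0 in eWAT, 7 and 4 in iBAT and 10 and 0 in Thy. Between FL_KO and GC_KO they numbered 11 and 6 in iBAT, 9 and 0 in Thy and 5 and 0 in Liv, or 31 over all tissues. Limma called 3 members over all tissues between GC_KO and GC_WT, with 0 in iBAT, and 0 in Thy between FL_KO and FL_WT. Without a filter on low counts, 0 members were called lower in eWAT and 0 higher in iBAT of WT mice, 1 higher in Thy of KO mice, 0 in all tissues between GC_KO and GC_WT (iBAT 0), and 3 in Thy between FL_KO and FL_WT. With only the groups compared in the fit, 0 were called lower in eWAT of WT mice, 0 in iBAT between GC_KO and GC_WT, and 3 over all tissues between FL_KO and FL_WT, with 2 in Thy. With flight mouse 04 included, 1 was called lower in eWAT of KO mice, 2 over all tissues between GC_KO and GC_WT and 2 between FL_KO and FL_WT, with 1 in Thy. DESeq2 called 2 members lower in eWAT of KO mice, 3 over all tissues between GC_KO and GC_WT and 2 lower in iBAT between FL_KO and FL_WT, and RLE factors gave 2 between GC_KO and GC_WT. Without the eWAT library with B cell markers, 2 members were called higher and 1 lower in WT mice. The cause of these moves was not tested. Counts in this section stand without the share of all genes called under the same setting, so they are not set against a background. With the mouse number as a replicate block, which does not pair animals, 0 members were called higher in iBAT of WT mice (29 lower) and 0 higher in Thy of KO mice (20 lower). Counts over all tissues were 40 and 52 in WT and KO flight comparisons with the block.

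With single FL_KO mice left out, and in Thy also GC_KO mouse 04, members called lower ranged from 26 to 27 in iBAT of WT mice and 28 to 32 in KO mice (1 higher in each), from 11 to 15 in Thy of WT mice (0 higher) and 14 to 25 in KO mice (1 to 2 higher), and from 1 to 2 in eWAT of WT mice (1 higher), with 0 in KO mice. The range was 1 to 6 in Thy and 1 to 1 in iBAT between FL_KO and FL_WT, and 1 to 1 in iBAT between GC_KO and GC_WT. No WT mouse was left out of iBAT, Thy or eWAT, and no ground mouse of iBAT or eWAT. The ranges between WT groups and between ground groups of iBAT therefore test no single mouse of the groups compared. With the library set as a block, 0 members were called in TpB. Precision was low for Psmb9 in iBAT, which had a median of 2.38 CPM in GC_WT, and depth and the spread between mice were not separated.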
